A study of Mus musculus with 9 samples.

Results

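GIRK channels are potassium channels that open when the beta-gamma part of a G protein binds them, and the genes described here encode the 4 channel subunits (Kcnj3, Kcnj5, Kcnj6 and Kcnj9) and 4 of the G protein beta subunits (Gnb1, Gnb2, Gnb4 and Gnb5). They were taken as all probe sets that the platform annotation gives to 1 of these 8 genes alone, 24 of the 45037 probe sets tested, with 15 probe sets for the channel subunits and 9 for the beta subunits. Transcript levels were measured on Affymetrix Mouse430_2 arrays in brain hemispheres, cerebellum left out, of untreated male mice aged 11 ± 1 weeks. The 9 arrays covered 3 strains, with 3 arrays each. These were B6By.C.132.54, whose name marks a C57BL/6By background with a BALB/c donor, and the inbred strains BALB/cJ and C57BL/6ByJ. Each array held a pool of 10 hemispheres, so p-values measure the spread between pools and not between single mice, and a hemisphere mixes many cell types. In such tissue, fewer cells of a type and less RNA per cell cannot be told apart.

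As background, receptors coupled to inhibitory G proteins, such as those for GABA, opioids, adenosine and serotonin, release the beta-gamma pair, which binds the GIRK channel, lets potassium out and quiets the neuron. Brain channels are built from GIRK1 (Kcnj3), GIRK2 (Kcnj6) and GIRK3 (Kcnj9), while GIRK4 (Kcnj5) is best known from the heart atrium. Gnb1, Gnb2 and Gnb4 encode beta subunits that pair with gamma subunits, whereas the product of Gnb5 pairs mainly with a family of RGS proteins. Ethanol is known to open GIRK channels directly.

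The promoters of Kcnj9 and Gnb1 are shown because these were the genes with called differences between strains. Both windows come from RefSeq (GRCm38.p6, the C57BL/6J reference) and run 5′ to 3′ on the gene's strand, from 250 bases before to 50 bases after the annotated start. Capitals mark matches, on either strand, to 5 motifs: GGGCGG, known as the GC box; CCAAT, which the factor NF-Y binds; TATAAA, the TATA box; CACGTG, an E-box; and TGACG, the core of the cAMP response element.
Kcnj9, chr1:172329273-172329572, minus strand: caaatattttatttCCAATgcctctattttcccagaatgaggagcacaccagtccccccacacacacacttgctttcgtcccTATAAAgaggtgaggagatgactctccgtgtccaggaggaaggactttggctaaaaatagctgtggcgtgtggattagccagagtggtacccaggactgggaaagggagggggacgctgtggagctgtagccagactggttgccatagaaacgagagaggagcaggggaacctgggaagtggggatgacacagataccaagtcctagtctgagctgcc
Gnb1, chr4:155491111-155491410, plus strand: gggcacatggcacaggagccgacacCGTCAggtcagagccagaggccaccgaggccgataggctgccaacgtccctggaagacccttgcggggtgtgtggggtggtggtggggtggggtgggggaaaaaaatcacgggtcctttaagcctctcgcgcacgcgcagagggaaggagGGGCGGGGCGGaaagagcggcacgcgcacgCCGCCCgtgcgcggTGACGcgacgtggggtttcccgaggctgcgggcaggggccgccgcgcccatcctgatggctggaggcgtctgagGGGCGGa
The Kcnj9 window held 1 CCAAT and 1 TATAAA and none of the other 3 motifs. In the Gnb1 window there were 4 matches to GGGCGG, with 2 of them overlapping each other, and 2 to TGACG. No match to one motif overlapped a match to another. Of 32851 promoter windows of the same length, 35.7% held GGGCGG, 37.4% CCAAT, 13.6% TATAAA, 7.15% CACGTG and 20.8% TGACG. GC content was 52.3% for Kcnj9 and 70.3% for Gnb1, beside a median of 52.7% over all windows, and CpG dinucleotides numbered 5 for Kcnj9 and 31 for Gnb1, beside a median of 7. RefSeq windows for 7 of the 8 genes were matched by symbol, all but Gnb4.

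In BALB/cJ against C57BL/6ByJ, 2 of the 3 Gnb1 probe sets were called higher. Those of Kcnj9 were called both ways, 2 higher and 1 lower. None of the other 6 genes had a called probe set. A probe set was called at an adjusted p under 0.05 in a linear model over all 9 arrays (limma, Benjamini-Hochberg over all 45037 probe sets). In this comparison 5 of the 24 probe sets were called (20.8%), against 1.43% of all probe sets. Higher calls made up 4 of the 24 and 0.508% of all, and lower calls 1 of the 24 and 0.921% of all. Probe sets of a gene share their target, so they are not replicates, and the 5 calls belong to 2 genes.

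Gnb1 encodes a beta subunit found widely in the brain, and 3 probe sets read it. Probe set 1454696_at read 5.04, 4.84 and 4.53 log2 intensity in B6By.C.132.54 pools, 9.69, 9.81 and 9.58 in BALB/cJ pools, and 4.55, 4.89 and 4.71 in C57BL/6ByJ pools. All 3 BALB/cJ arrays lay far above the other 6, whose values overlapped. The difference of BALB/cJ from C57BL/6ByJ was 4.97 ± 0.136 on the log2 scale (SE), or 31.4-fold (limma adjusted p = 9.89e-09). By replicate number it was 5.14, 4.92 and 4.87.

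Probe set 1417432_a_at of Gnb1 read 6.49, 6.15 and 5.89 in B6By.C.132.54 pools, 8.34, 8.42 and 8.33 in BALB/cJ pools, and 6.38, 6.40 and 6.32 in C57BL/6ByJ pools. Again BALB/cJ stood apart with a narrow spread, and the other strains overlapped. Its difference between BALB/cJ and C57BL/6ByJ was 2.00 ± 0.131 (SE; limma adjusted p = 1.24e-05). The ending _a_at marks a probe set built to match several transcripts of 1 gene. The 2 called probe sets of Gnb1 thus gave the same direction with unequal sizes, with 95% intervals of 1.71 to 2.28 for 1417432_a_at and 4.67 to 5.27 for 1454696_at.

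The remaining Gnb1 probe set, 1425908_at, was dim. It read 2.77, 2.87 and 2.52 in B6By.C.132.54 pools, 3.02, 3.17 and 3.12 in BALB/cJ pools, and 2.67, 2.66 and 2.82 in C57BL/6ByJ pools. BALB/cJ did not overlap either other strain here, but the difference of 0.39 ± 0.104 from C57BL/6ByJ (SE) did not pass (limma adjusted p = 0.166). Its mean lay below 3.968, the middle of the means of all probe sets, and so did those of 10 of the 24 probe sets described here (41.7%). The table holds no detection call, so whether such low values exceed background was not tested.

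Kcnj9 encodes GIRK3, a neuronal subunit that joins other GIRK subunits in the channel and is known to lower the number of channels at the surface. Its 4 probe sets did not move together. Probe set 1450712_at read 5.76, 6.05 and 5.26 in B6By.C.132.54 pools, 8.12, 7.67 and 7.94 in BALB/cJ pools, and 6.16, 6.23 and 6.23 in C57BL/6ByJ pools. BALB/cJ was highest on all arrays, and no strain overlapped another. The difference between BALB/cJ and C57BL/6ByJ was 1.70 ± 0.177 (SE; limma adjusted p = 0.000399), with 1.97, 1.44 and 1.70 by replicate number.

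Probe set 1428602_at of Kcnj9 went the opposite way. It read 6.52, 6.97 and 6.71 in B6By.C.132.54 pools, 5.91, 5.93 and 5.88 in BALB/cJ pools, and 6.72, 6.75 and 6.79 in C57BL/6ByJ pools. All 3 BALB/cJ arrays lay below the other 6, within a range narrower than that of either other strain. Its difference was -0.85 ± 0.108 (SE), or 1.80-fold lower in BALB/cJ (limma adjusted p = 0.00174), and -0.81, -0.82 and -0.92 by replicate number.

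A further Kcnj9 probe set, 1426115_a_at, was higher in BALB/cJ. It read 4.45, 5.10 and 4.77 in B6By.C.132.54 pools, 5.77, 6.07 and 6.06 in BALB/cJ pools, and 4.40, 4.98 and 5.10 in C57BL/6ByJ pools. BALB/cJ again overlapped neither other strain, though the spread within those was wider than for 1428602_at. Its difference was 1.14 ± 0.197 (SE; limma adjusted p = 0.0143). This call was lost without BALB/cJ replicate 2 (limma adjusted p = 0.0858) or BALB/cJ replicate 3 (0.0849), with a difference of 1.09 in both cases. The fourth probe set, 1433029_at, averaged 3.63 ± 0.0959 in B6By.C.132.54 pools, 3.72 ± 0.345 in BALB/cJ pools and 3.56 ± 0.0148 in C57BL/6ByJ pools (SD, n = 3 each) and was not called (limma adjusted p = 0.944). BALB/cJ replicate 3 read 4.11 there, and the other 8 arrays read 3.46 to 3.74.

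Opposite calls within a gene were uncommon but not particular to Kcnj9. Of 9010 genes with at least 2 probe sets, 48 had at least 2 called between BALB/cJ and C57BL/6ByJ, and 7 of these 48 (14.6%) had calls in both directions. Kcnj9 was 1 of the 7, and Gnb1 was among the 41 with calls in 1 direction. Which stretch of a transcript each probe set reads, and whether BALB/cJ differs there in sequence, was not tested. A level of the whole gene is therefore not given for Kcnj9 or Gnb1.

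**Figure D1:**
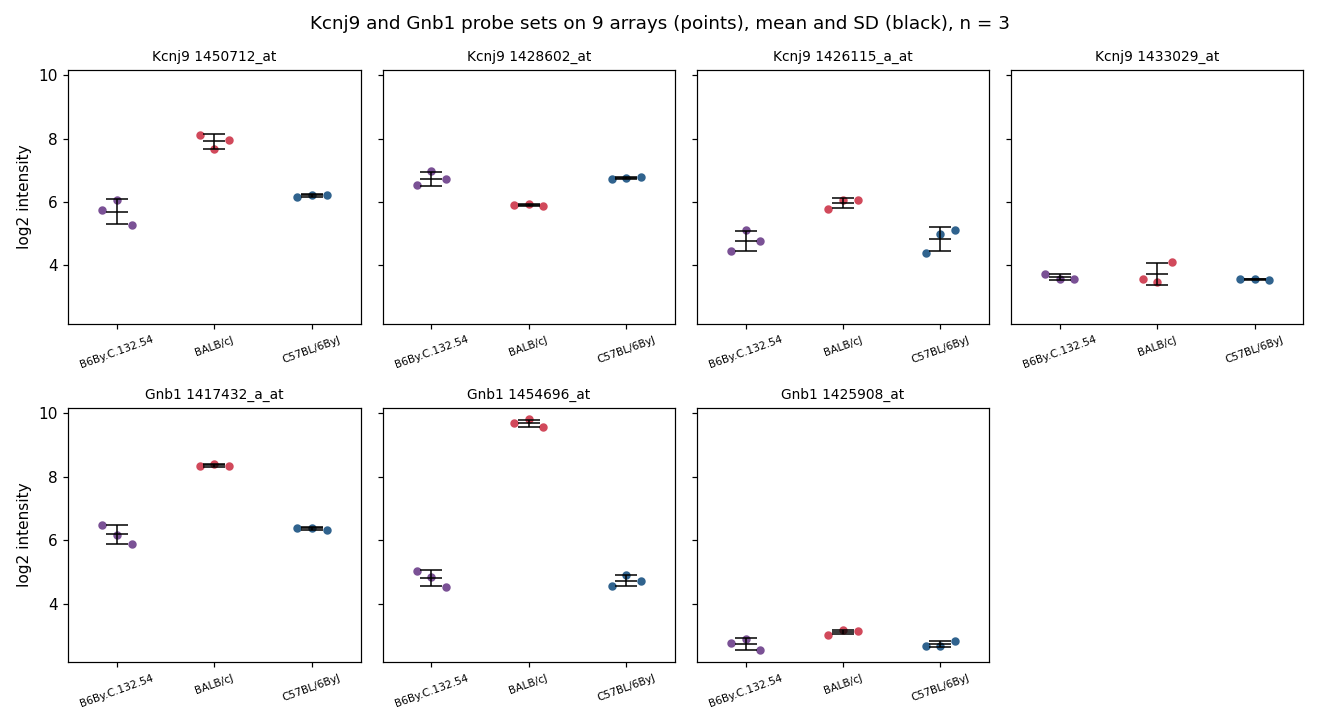
Log2 intensity (y axis) of the 4 Kcnj9 probe sets (top) and the 3 Gnb1 probe sets (bottom) in B6By.C.132.54, BALB/cJ and C57BL/6ByJ (x axis); points are arrays, and black bars give the mean and SD (n = 3). BALB/cJ stands above the other strains for Gnb1 1454696_at (mean 9.69) and 1417432_a_at (8.36) and for Kcnj9 1450712_at (7.91), and below them for Kcnj9 1428602_at (5.91).

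The comparison of B6By.C.132.54 with BALB/cJ uses the same BALB/cJ arrays as BALB/cJ against C57BL/6ByJ, so the values are given side by side and not as a repeat. The same number of probe sets, 5 of 24 (20.8%), was called, against 1.28% of all probe sets. Lower calls were 4 of the 24 and 0.564% of all, and higher calls 1 of the 24 and 0.713% of all. The 2 called Gnb1 probe sets were lower in B6By.C.132.54. The log2 difference was -4.89 ± 0.136 for 1454696_at (SE, 29.6-fold, limma adjusted p = 1.49e-08) and -2.19 ± 0.131 for 1417432_a_at (6.35e-06). For Kcnj9 it was -2.22 ± 0.177 with 1450712_at (limma adjusted p = 6.02e-05), -1.19 ± 0.197 with 1426115_a_at (0.0109) and 0.83 ± 0.108 with 1428602_at (0.00223), so the opposite directions appeared here as well. The 1426115_a_at call was lost here too without BALB/cJ replicate 2 (limma adjusted p = 0.0733) or BALB/cJ replicate 3 (0.0704).

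Between B6By.C.132.54 and C57BL/6ByJ, the strain named as its background, limma called none of the 24 probe sets and 0% of all probe sets, and the replicate block added no call among the 24. An unadjusted p under 0.05 was reached by 1 of the 24, beside 1751 of all 45037. It was Kcnj9 1450712_at, with a log2 difference of -0.51 (SE 0.177, 95% interval -0.91 to -0.12; limma adjusted p = 0.915). The 3 B6By.C.132.54 arrays, at 5.76, 6.05 and 5.26, all lay under the 3 C57BL/6ByJ arrays, at 6.16, 6.23 and 6.23. Without B6By.C.132.54 replicate 1, 2 or 3 in turn, the difference was -0.55 (limma unadjusted p = 0.0224), -0.69 (0.00196) or -0.30 (0.0545), and the adjusted p was 0.457 or higher in all of these. The 95% intervals for Gnb1 ran from -0.21 to 0.39 for 1454696_at and from -0.48 to 0.10 for 1417432_a_at, well short of the BALB/cJ differences.

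Groups that do not overlap are frequent among all probe sets and are read against that. They numbered 7 of the 24 between BALB/cJ and C57BL/6ByJ (29.2%, against 12.6% of all probe sets), 3 of the 24 between B6By.C.132.54 and C57BL/6ByJ (12.5%, against 6.62%) and 6 of the 24 between B6By.C.132.54 and BALB/cJ (25%, against 9.51%). In B6By.C.132.54 against C57BL/6ByJ the 3 were Kcnj9 1450712_at, Kcnj3 1455374_at and Kcnj5 1421762_at. The median difference over the 24 probe sets was 0.049 between BALB/cJ and C57BL/6ByJ, beside 0.018 over all probe sets, and single values ran from -0.85 to 4.97.

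**Figure D2:**
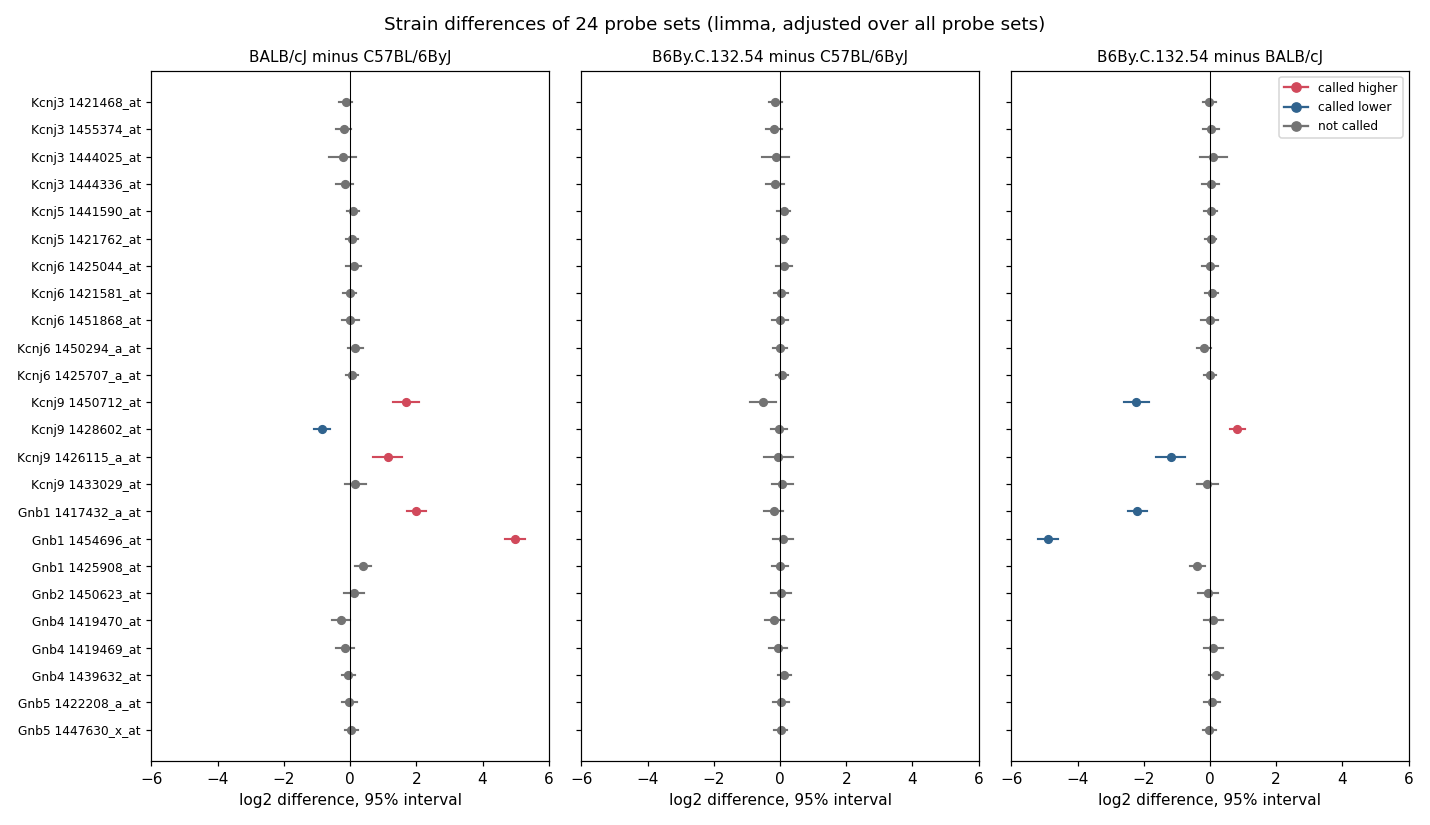
Log2 differences (points) with 95% intervals (lines) of the 24 probe sets in the 3 strain comparisons; red marks higher, blue lower and grey uncalled probe sets. The 5 called probe sets in each comparison with BALB/cJ belong to Kcnj9 and Gnb1, and all 24 are grey in B6By.C.132.54 minus C57BL/6ByJ.

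Among the other channel subunits, Kcnj3 encodes GIRK1, which is present in most brain GIRK channels. Probe set 1421468_at, the brightest of its 4, read 5.93, 5.98 and 5.74 in B6By.C.132.54 pools, 5.92, 5.98 and 5.80 in BALB/cJ pools, and 6.02, 5.98 and 6.08 in C57BL/6ByJ pools. The 3 strains overlapped. All 4 Kcnj3 probe sets had log2 differences a little below 0, from -0.23 to -0.13 between BALB/cJ and C57BL/6ByJ and from -0.18 to -0.13 between B6By.C.132.54 and C57BL/6ByJ, which share the C57BL/6ByJ arrays. None of these differences passed (limma adjusted p of 0.764 or higher for BALB/cJ). For 1455374_at, the 3 arrays of BALB/cJ (5.76, 5.81 and 5.46) lay under those of C57BL/6ByJ (5.93, 5.87 and 5.82), with a difference of -0.20 (95% interval -0.44 to 0.03).

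Kcnj6 encodes GIRK2, the subunit mutated in the weaver mouse, and was read by 5 probe sets. The brightest, 1425044_at, read 4.21, 4.14 and 4.10 in B6By.C.132.54 pools, 4.06, 4.23 and 4.14 in BALB/cJ pools, and 3.81, 4.15 and 4.15 in C57BL/6ByJ pools. No strain stood apart. The other 4 lay below the middle of all probe sets. Differences between BALB/cJ and C57BL/6ByJ ran from -0.01 to 0.16 over the 5, and none was called. For 1451868_at all 3 C57BL/6ByJ arrays read 3.19. Equal values between arrays occur throughout the table: 15 of the 24 probe sets (62.5%) had 1 exact intensity on at least 2 arrays, as did 61.5% of all probe sets.

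Kcnj5, the GIRK4 subunit, had 2 probe sets, both dim. Probe set 1441590_at averaged 3.13 ± 0.122 in B6By.C.132.54 pools, 3.11 ± 0.0589 in BALB/cJ pools and 3.02 ± 0.0456 in C57BL/6ByJ pools, and 1421762_at averaged 2.92 ± 0.0475 in B6By.C.132.54 pools, 2.90 ± 0.0183 in BALB/cJ pools and 2.84 ± 0.0343 in C57BL/6ByJ pools (SD, n = 3 each). Neither was called in any comparison. The limma adjusted p was 0.915 or higher wherever C57BL/6ByJ was compared.

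Of the other beta subunits, Gnb2 was read by 1 probe set, 1450623_at. It gave 9.04, 9.33 and 9.19 in B6By.C.132.54 pools, 9.01, 9.46 and 9.31 in BALB/cJ pools, and 8.98, 9.35 and 9.11 in C57BL/6ByJ pools. In each strain replicate 1 was lowest and replicate 2 highest, and the strains overlapped. Its difference between BALB/cJ and C57BL/6ByJ was 0.11 (95% interval -0.19 to 0.41; limma adjusted p = 0.964).

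The 3 probe sets of Gnb4 showed no called difference. Probe set 1419470_at read 6.26, 6.36 and 6.01 in B6By.C.132.54 pools, 5.88, 6.18 and 6.26 in BALB/cJ pools, and 6.26, 6.51 and 6.38 in C57BL/6ByJ pools. The arrays overlapped, and its difference between BALB/cJ and C57BL/6ByJ of -0.27 (95% interval -0.55 to 0.01) was the largest among the 19 uncalled probe sets on the lower side. The other 2 differed by -0.16 and -0.05.

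Gnb5 was steady on its bright probe set, 1422208_a_at, with 8.48, 8.84 and 8.59 in B6By.C.132.54 pools, 8.51, 8.68 and 8.56 in BALB/cJ pools, and 8.49, 8.67 and 8.66 in C57BL/6ByJ pools. The strains overlapped, and the difference between BALB/cJ and C57BL/6ByJ was -0.02 (95% interval -0.26 to 0.22). Its other probe set, 1447630_x_at, read 2.52 to 2.79 over all 9 arrays. The ending _x_at marks probes that can also bind other sequences.

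Over the 19 uncalled probe sets, the 95% intervals of the difference between BALB/cJ and C57BL/6ByJ lay between -0.64 and 0.62 on the log2 scale. Differences within those bounds could go uncalled with 3 arrays per strain, so the lack of a call does not show equal levels.

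**Figure D3:**
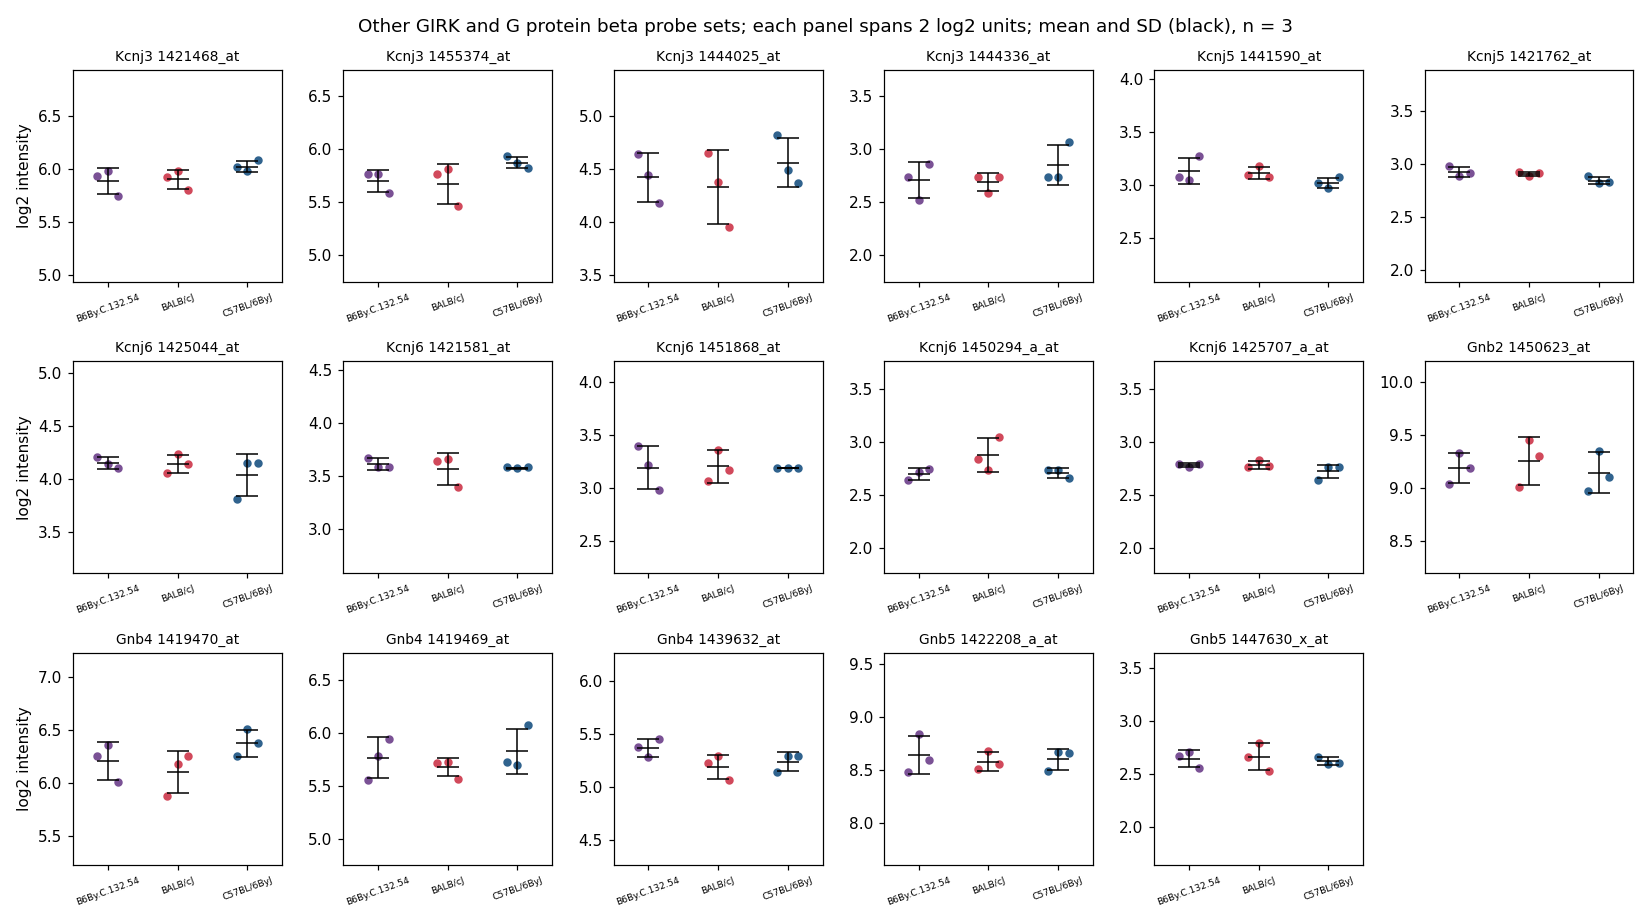
Log2 intensity (y axis, each panel spanning 2 log2 units) of the 17 probe sets of Kcnj3, Kcnj5, Kcnj6, Gnb2, Gnb4 and Gnb5 in the 3 strains (x axis); points are arrays, and black bars give the mean and SD (n = 3). None was called; the mean of Gnb2 is 9.19 in B6By.C.132.54 pools, 9.26 in BALB/cJ pools and 9.15 in C57BL/6ByJ pools.

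The rest of the pathway was read through 5 gene lists, with each gene represented by the probe set of highest mean. By that rule 241 of 18193 genes (1.32%) had a call in BALB/cJ against C57BL/6ByJ, and 1.10% between B6By.C.132.54 and BALB/cJ. Kcnj9 (1 of 4 channel subunits) and Gnb1 (1 of 4 beta subunits) were called in both. Kcnj9 was read here by 1450712_at (mean 6.602) and not by 1428602_at (6.464), which was called the opposite way. The high BALB/cJ level of 1450712_at (7.91, against 5.91) decided this pick. In B6By.C.132.54 and C57BL/6ByJ pools, 1428602_at was the brighter (6.73 against 5.69, and 6.75 against 6.21). The Kcnj9 calls in this list are thus those of 1 probe set. None of the 11 G protein gamma subunits, 12 G protein alpha subunits, 13 receptors known to open GIRK channels and 20 regulators and partners measured was called by limma in any of the 3 comparisons, and adding the replicate number as a block called none either. With an unadjusted p under 0.05 there were 4 of these 56 genes between BALB/cJ and C57BL/6ByJ, 2 between B6By.C.132.54 and C57BL/6ByJ, and 3 between B6By.C.132.54 and BALB/cJ. Of all 45037 probe sets, 3416, 1751 and 3378 reached this in the same 3 comparisons. These counts take in dim probe sets and several per gene, so their unit differs from that of the 56 genes. Median differences between BALB/cJ and C57BL/6ByJ were -0.01 for the gamma subunits, 0.009 for the alpha subunits, -0.052 for the receptors and -0.039 for the regulators, beside 0.015 over all genes.

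Within these lists, Gnao1, which encodes the alpha subunit most abundant in neurons, averaged 8.91 ± 0.0466 in BALB/cJ and 8.93 ± 0.0557 in C57BL/6ByJ (SD, n = 3 each). Gabbr1, a subunit of the GABA-B receptor, averaged 9.88 ± 0.0857 in BALB/cJ and 10.07 ± 0.0987 in C57BL/6ByJ (limma adjusted p = 0.76). Sstr2, a somatostatin receptor, had the largest difference of the 56 genes, 0.48 higher in BALB/cJ, and did not pass (limma adjusted p = 0.131). The RGS genes whose products pair with that of Gnb5 differed by 0.30 (Rgs6), -0.15 (Rgs7), 0.14 (Rgs9) and 0.11 (Rgs11), none of them called. Probe sets other than the brightest gave 2 calls within these lists. A dimmer probe set of Rgs9 was called, with a log2 difference of 0.70 between BALB/cJ and C57BL/6ByJ (limma adjusted p = 0.027) and -0.68 between B6By.C.132.54 and BALB/cJ (0.0354). A probe set of Gna13, a G protein alpha subunit gene, was called with 0.77 (limma adjusted p = 0.0356) and -0.87 (0.0175) in the same comparisons.

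Of 13 other inward rectifier and KATP channel subunits, 1 was called between BALB/cJ and C57BL/6ByJ and 2 between B6By.C.132.54 and BALB/cJ. Kcnj10, the main inward rectifier of astrocytes, averaged 8.24 ± 0.195 in B6By.C.132.54 pools, 8.91 ± 0.0279 in BALB/cJ pools and 8.24 ± 0.17 in C57BL/6ByJ pools (SD, n = 3 each; limma adjusted p = 0.0144 for BALB/cJ against C57BL/6ByJ and 0.016 for B6By.C.132.54 against BALB/cJ). The first call was lost without any 1 BALB/cJ array or without C57BL/6ByJ replicate 3 (adjusted p of 0.0527 to 0.0726) and the second without any 1 BALB/cJ array (0.0562 to 0.0821). Kcnj16, whose product joins that of Kcnj10, averaged 5.16 ± 0.264 in B6By.C.132.54 and 5.78 ± 0.129 in BALB/cJ (SD, n = 3 each; limma adjusted p = 0.042). That call was lost under 10 of 16 alternative settings, among them each removal of 1 array except B6By.C.132.54 replicate 1 (adjusted p of 0.0738 to 0.215).

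**Figure D4:**
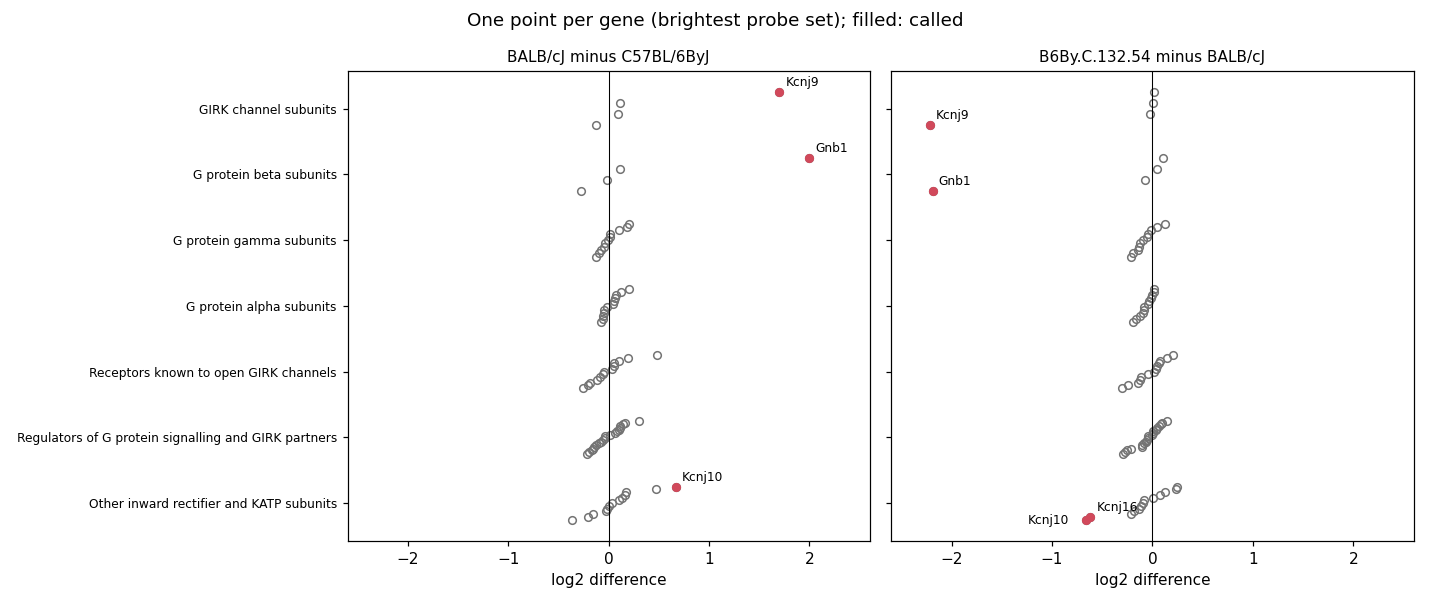
Log2 difference (x axis) of each gene of 7 lists (y axis), 1 point per gene by its probe set of highest mean, in BALB/cJ minus C57BL/6ByJ (left) and B6By.C.132.54 minus BALB/cJ (right); filled points were called. Kcnj9 (1.70 and -2.22) and Gnb1 (2.00 and -2.19) stand apart, Kcnj10 (0.67 and -0.66) is next, and Kcnj16 (-0.62) is filled on the right only.

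Kcnj9 and Kcnj10 are neighbours on chromosome 1 in the RefSeq gene order. Each neighbour was read by its probe set of highest mean, and other probe sets of the neighbours were not examined. Of the 10 measured genes nearest Kcnj9, 5 on each side, Kcnj10 was called in both comparisons with BALB/cJ and the other 9 in none. Igsf8, the neighbour on the opposite side, averaged 8.45 ± 0.161 in B6By.C.132.54 pools, 8.47 ± 0.202 in BALB/cJ pools and 8.52 ± 0.132 in C57BL/6ByJ pools (SD, n = 3 each). Around Gnb1 on chromosome 4, none of the 10 nearest measured genes was called on that probe set. Their differences between BALB/cJ and C57BL/6ByJ ran from -0.17 to 0.08. Nadk, next to Gnb1, averaged 7.42 ± 0.16 in B6By.C.132.54 pools, 7.40 ± 0.161 in BALB/cJ pools and 7.43 ± 0.116 in C57BL/6ByJ pools (SD, n = 3 each).

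**Figure D5:**
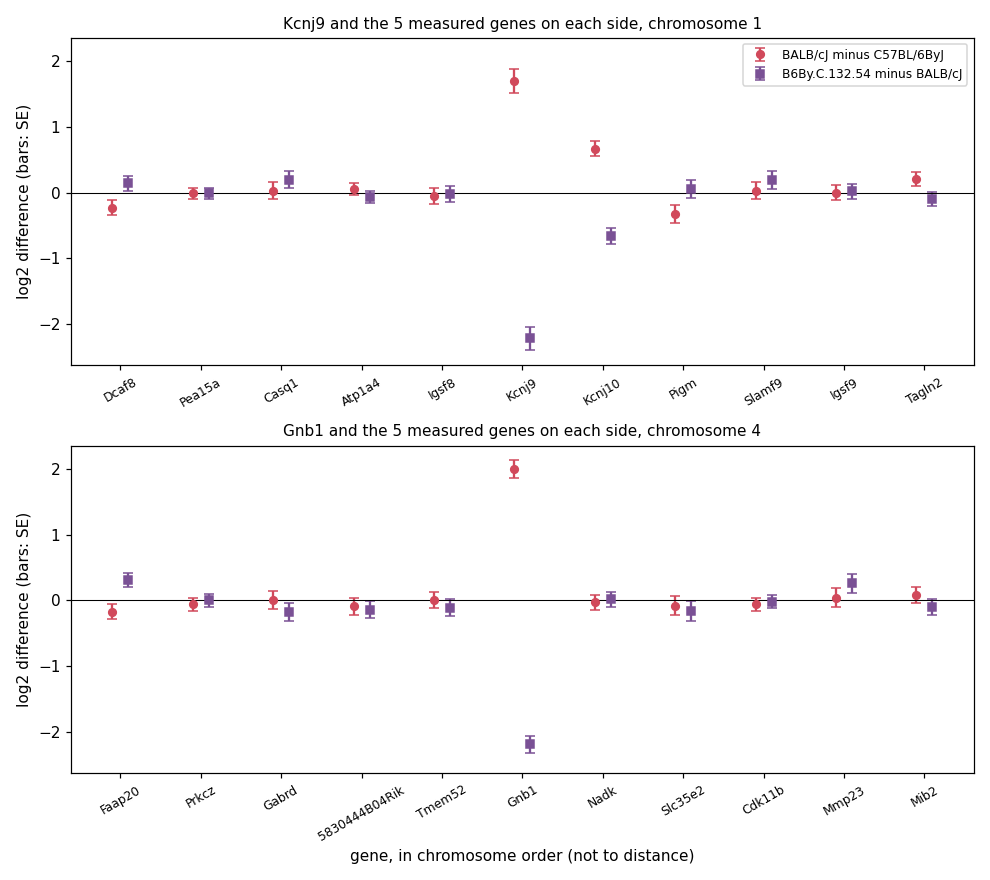
Log2 difference with its SE (y axis) of Kcnj9 (top), Gnb1 (bottom) and the 5 measured genes on each side in chromosome order (x axis, not to distance), for BALB/cJ minus C57BL/6ByJ (circles) and B6By.C.132.54 minus BALB/cJ (squares). Each gene is shown by its probe set of highest mean. Beside Kcnj9 only Kcnj10 was called among the 10 neighbours, and beside Gnb1 none was.

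The genes whose profile over the 9 arrays was most like that of Kcnj9 and Gnb1 were found by the root mean square difference after centring each profile on its own mean, over probe sets at or above the middle level. For Kcnj9 1450712_at these were Fgfr1op2 (0.17 log2 units), Mtm1 (0.206) and Clasp2 (0.251), among 19404 probe sets. Gnb1 1417432_a_at was nearest to Ptp4a2 (0.226), followed by Kcnj9 1450712_at itself and Clasp2 (0.253 each), among 19405. For scale, the profiles varied around their own means by 0.972 (Kcnj9) and 1.00 (Gnb1). All of these genes were higher in BALB/cJ, as the choice by likeness requires. Ptp4a2 was also among the 7 genes with calls in both directions.

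The arrays were alike in brightness, with median intensities between 15.49 and 15.99, and B6By.C.132.54 replicate 3 had the narrowest interquartile range (2.731 log2 units, against 2.836 to 2.982 on the other 8). Neuronal markers such as Snap25 (mean 10.98) and oligodendrocyte markers such as Mbp (12.32) were bright. Of 7 genes listed for the cerebellum, 3 lay below the middle of all probe sets, Gabra6 (3.244), Cbln3 (3.744) and Pcp2 (3.746). The other 4 lay above it, Neurod1 (4.52), Cbln1 (6.591), Pvalb (8.772) and Calb1 (8.819). From which part of the brain the signal of these 4 came was not tested. Of 60 markers of 11 cell types and regions, each read by its probe set of highest mean, limma called 4 in BALB/cJ against C57BL/6ByJ. Of all 18193 genes read this way, 1.32% were called. Gfap, 1 of 7 astrocyte markers, was higher, also on its 2 other probe sets. Over the 7, differences ran from -0.10 to 0.92. In each comparison with BALB/cJ, 1 of the 4 other Slc1a2 probe sets was called higher in BALB/cJ, while the brightest was not called. Lower in BALB/cJ than in C57BL/6ByJ were C1qb and C1qc (2 of 7 microglia markers) and Cldn5 (1 of 6 endothelium and pericyte markers). The 2 other C1qb probe sets were not called in any comparison. Differences between BALB/cJ and C57BL/6ByJ ran from -0.75 to 0.17 over the microglia markers. Over the endothelium and pericyte markers they ran from -0.54 to 0.25. The summed astrocyte intensity was 4084 to 4281 in BALB/cJ and 4036 to 4285 in C57BL/6ByJ, and the summed microglia intensity was 1047 to 1224 in BALB/cJ and 1190 to 1332 in C57BL/6ByJ. All such sums add linear intensities, so the brightest genes of a list weigh most. Among the astrocyte markers, Slc1a2 averaged 11.04 log2 units over all arrays and Gfap 7.518. None of the 8 neuron markers was called, with sums of 8183 to 9441 in BALB/cJ and 8688 to 9789 in C57BL/6ByJ. Between B6By.C.132.54 and BALB/cJ, 4 of the 60 markers were called, beside 1.10% of all genes. Gfap (1 of 7 astrocyte markers) and Rgs5 (1 of 6 endothelium and pericyte markers) fell. C1qb and C1qc (2 of 7 microglia markers) rose. Differences in this comparison ran from -0.71 to 0.03 over the astrocyte markers and from -0.12 to 0.88 over the microglia markers. Over the endothelium and pericyte markers they ran from -0.56 to 0.37. Summed intensities in B6By.C.132.54 were 3391 to 4067 for astrocyte, 7468 to 8924 for neuron and 1204 to 1399 for microglia markers. For oligodendrocyte markers they were 7991 to 9626 (8956 to 9634 in BALB/cJ), and for endothelium and pericyte markers 732.8 to 882.4 (851.8 to 904.5). In B6By.C.132.54 against C57BL/6ByJ, limma called none of the 60 markers, also with the replicate block. The part of these marker differences in the Kcnj9, Gnb1 and Kcnj10 results was not tested.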

How the data were processed

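In the deposited table, each array has a linear intensity for every probe set. The authors' steps are known only from the submitters' processing notes, which name GCOS and RMA without version or order. Per the labels' protocols, labelling started from 7 µg of RNA. The background treatment is not given in the sources used here.

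Values were log2-transformed without a pseudocount or further normalization. After 64 control probe sets were left out, 45037 were fitted in R 4.3.3 by limma 3.58.1 (functions lmFit, eBayes; 1 mean per strain, 6 residual and 4.823 prior degrees of freedom), with two-sided tests, Benjamini-Hochberg adjustment over all of them and a threshold of 0.05. The fit was tested on simulated data. The simulated arrays were drawn independently of one another, so deviations shared by arrays of the same replicate number were not covered. Intervals use the moderated standard error. Precision is limited by the 3 arrays per strain.

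Probe sets were named where the platform annotation gave 1 gene (34945), with symbols updated by Entrez identifier through RefSeq GRCm38.p6 (34741 matched). Replicates are pools of separate mice. The study's design text states 3 batches with all strains in each, without tying replicate numbers to them. Same-numbered arrays deviated together in every pair (correlation 0.147 to 0.542 over probe sets), so the numbers were taken as pairs and the fit with a replicate block was run as an alternative. The other alternatives were quantile normalization, median centring, a pseudocount of 16, leaving out dim probe sets, 2 strains alone, another variance prior, and each array left out in turn.

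The named genes are all 24 probe sets of the 8 genes, the called genes of the pathway lists, the 3 most alike profiles and the 5 measured genes on each side. Further genes (the uncalled pathway genes, the markers and the neighbours Igsf8 and Nadk given with values) were chosen after their values were seen. Genes and lists were chosen with earlier results of these data known. Some listed genes, among them Gng5, Adora1, Adra2a, Chrm2, Gabbr2, Kctd12 and Hbb-b1, were not analysed here.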

Additional observations from a re-analysis of the deposited data

How the results depend on the processing

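The number of called probe sets among the 24 was 5 in both comparisons with BALB/cJ and 0 in B6By.C.132.54 against C57BL/6ByJ. It was again 5, 5 and 0 with the replicate block, quantile normalization, median centring, a pseudocount of 16, dim probe sets left out (which drops 10 of the 24), 2 strains alone and another variance prior. With 1 array left out it was 4 or 5 in each comparison with BALB/cJ and 0 in the other, and the probe set that dropped out was Kcnj9 1426115_a_at. Calls over all probe sets varied more. Between BALB/cJ and C57BL/6ByJ they numbered 644, and from 410 (without C57BL/6ByJ replicate 2) to 953 (replicate block) in the alternatives. Between B6By.C.132.54 and BALB/cJ they numbered 575, and from 391 (without BALB/cJ replicate 2) to 834 (replicate block). No called difference of Kcnj9, Gnb1, Kcnj10 or Kcnj16 changed sign in any of the 16 alternatives. Gnb1 1454696_at ran from 4.32 to 5.06 between BALB/cJ and C57BL/6ByJ, Gnb1 1417432_a_at from 1.81 to 2.03, Kcnj9 1450712_at from 1.51 to 1.82, Kcnj9 1428602_at from -0.87 to -0.70 and Kcnj9 1426115_a_at from 0.82 to 1.28. The replicate block gave limma adjusted p-values of 0.000243 for Kcnj9 1426115_a_at between BALB/cJ and C57BL/6ByJ and 0.0212 for Kcnj16 between B6By.C.132.54 and BALB/cJ, and changed no call of a gene in the pathway lists. With the block, 1 microglia marker, Tyrobp, was called higher in B6By.C.132.54 than in BALB/cJ (0.55; limma adjusted p = 0.0366, and 0.126 without it). The low signal of Kcnj5, 4 of 5 Kcnj6 probe sets and the dim probe sets of Kcnj3, Kcnj9, Gnb1 and Gnb5 limits what can be said of them.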
